A study of Mus musculus with 18 samples.

Results

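The genes described here encode 10 core components of the basement membrane, the sheet of extracellular matrix on which epithelia rest: Col4a1, Col4a2, Lama1, Lama5, Lamb1, Lamc1, Nid1, Nid2, Hspg2 and Sparc. They were taken by symbol from a fixed list of names and are 10 of the 23421 genes of the deposited expression table. Every member had 1 RefSeq transcript there and an FPKM of at least 6 in every library. FPKM is a count of sequenced fragments corrected for transcript length and for the size of the library, so levels of different genes can be set side by side.

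Laminins are trimers of an alpha, a beta and a gamma chain that polymerise at the cell surface, and the collagen IV chains encoded by Col4a1 and Col4a2 join into heterotrimers that form a second, covalently cross-linked network. Nidogens and the heparan sulfate proteoglycan perlecan tie the networks together, and Sparc is a secreted protein that binds collagen. In the early mouse embryo basement membranes appear with the first epithelia, and parietal endoderm secretes their components in large amounts.

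The question of the study was what Polycomb complex PRC2, which methylates lysine 27 of histone H3 and needs its core subunit Eed, does to active transcription, and RNA was sequenced in 6 libraries, all of 129/Ola background, from mouse ES (embryonic stem) cells and from EBs (embryoid bodies). Wild-type and Eed knockout (Eed KO) E36 cells, an ES cell line, were grown on gelatin in 15% serum with leukemia inhibitory factor. The same 2 genotypes were also differentiated as EBs, which are aggregates made by taking that factor away: hanging drops for 48 h, all-trans retinoic acid at 0.5 µM from day 2 to day 5, and harvest on day 9. E14 cells, another ES line, carried a pLKO.1 lentivirus with a scrambled hairpin (shCtrl) or a hairpin against Setd2 (shSetd2), the methyltransferase of histone H3 lysine 36, and were harvested on day 4 after puromycin selection.

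Each group is 1 library, so no spread between replicates was measured, no test was run, and a difference between neighbouring levels cannot be set against an error. The labels do not say how many Eed KO clones there were. Differences are of log2(FPKM + 1), which understates changes of weak genes, and a gene is called higher or lower where the difference is at least 1 in size (the size rule, a factor of 2). All 10 members passed the filter of an FPKM of at least 1 in a library of the comparison.

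Facts of the whole table bear on what follows. Estimated relative depth ran from 0.79 (EB Eed KO) to 1.18 of the ES wild-type library, and FPKM totals from 452782 to 598935. Eed mRNA was 72.3 in ES wild type and 77.8 FPKM in the ES library labelled Eed KO, so the message does not check that label, whereas Setd2 was 16.8 in shCtrl and 2.59 FPKM in shSetd2. The EB library labelled Eed KO differed from the other 5 in Y-linked RNA, with Eif2s3y at 0.063 FPKM against 20.4 to 36.9, the lower of these in ES Eed KO. Whether the ES and EB libraries labelled Eed KO come from the same line is not given by the labels and was not tested. Summed over 10 pluripotency markers, the 4 ES libraries held 3161 to 4495 FPKM and the EBs 252 (wild type) and 48.0 (Eed KO). In these bulk samples, fewer cells of a type and less RNA per cell cannot be told apart.

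Col4a1 and Col4a2 are neighbours transcribed away from each other, and the promoter windows show how closely they sit. In the deposited table, on mm9, Col4a1 (NM_009931) spans chr8:11198423-11312826 and Col4a2 (NM_009932) spans chr8:11312829-11449287, so that 2 bases separate them. RefSeq promoter windows (build GRCm38.p6, 250 bases before to 50 after the start) were given for 7 of the 10 members, and the windows of this pair share 78 bases, written in capitals on each strand in turn. Col4a1 is chr8:11312777-11313076 on the minus strand and Col4a2 is chr8:11312555-11312854 on the plus strand.
Col4a1: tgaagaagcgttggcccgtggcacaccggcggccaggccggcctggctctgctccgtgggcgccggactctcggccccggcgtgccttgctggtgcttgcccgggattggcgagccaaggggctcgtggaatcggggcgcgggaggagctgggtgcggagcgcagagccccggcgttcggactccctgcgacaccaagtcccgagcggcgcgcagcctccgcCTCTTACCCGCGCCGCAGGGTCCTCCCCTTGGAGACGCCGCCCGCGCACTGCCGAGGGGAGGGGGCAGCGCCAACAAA
Col4a2: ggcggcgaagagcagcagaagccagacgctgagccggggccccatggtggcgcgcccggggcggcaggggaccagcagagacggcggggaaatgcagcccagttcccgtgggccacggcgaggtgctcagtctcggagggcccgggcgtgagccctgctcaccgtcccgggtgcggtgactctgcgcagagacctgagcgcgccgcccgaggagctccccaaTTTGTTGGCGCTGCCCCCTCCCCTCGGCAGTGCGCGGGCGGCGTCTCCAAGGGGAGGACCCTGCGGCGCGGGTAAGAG
In this build the start sites lie 21 bases apart, at 11312826 for Col4a1 and 11312805 for Col4a2. The annotated transcripts therefore overlap at their starts there, unlike the loci on mm9. Both windows are rich in G and C, at 74.0% and 73.7%, against a median of 52.7% over 32817 promoters.

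The windows of Lama5 and Sparc are shown as a CG-rich example and as the window with the fewest CG dinucleotides of the 7; these dinucleotides are in capitals. PRC2 is known to occupy CG-rich promoters of silent genes, and its binding at these windows was not analysed here. Lama5 is chr2:180225810-180226109 and Sparc is chr11:55420031-55420330, both on the minus strand.
Lama5: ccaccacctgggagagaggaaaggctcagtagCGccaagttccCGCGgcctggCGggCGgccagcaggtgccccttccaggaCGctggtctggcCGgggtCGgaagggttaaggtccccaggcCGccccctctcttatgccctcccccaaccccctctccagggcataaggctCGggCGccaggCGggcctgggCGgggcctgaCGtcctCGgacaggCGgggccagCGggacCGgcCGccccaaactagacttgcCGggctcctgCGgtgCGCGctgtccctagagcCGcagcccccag
Sparc: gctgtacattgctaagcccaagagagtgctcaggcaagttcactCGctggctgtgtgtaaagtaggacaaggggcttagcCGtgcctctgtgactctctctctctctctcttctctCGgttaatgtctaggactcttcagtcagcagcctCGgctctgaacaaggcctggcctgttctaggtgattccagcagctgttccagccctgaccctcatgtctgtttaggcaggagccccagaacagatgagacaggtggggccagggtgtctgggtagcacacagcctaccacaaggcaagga
The Lama5 window held 24 CG dinucleotides, 0.607 of the number its base composition gives, and the Sparc window 4, or 0.174. The median of all promoters was 0.383. The other windows held 37 (Col4a1), 33 (Col4a2), 27 (Hspg2), 20 (Nid1) and 18 (Lamb1).

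Short motifs were searched on both strands of the windows. A GC box, spelled GGGCGG, was found in 6 of the 7 member windows, all but that of Sparc, and in 35.6% of all promoters. Hspg2 held 5 matches, Lama5 4 and Col4a2 3. The CCAAT box, searched by its own letters, was present in 4 of 7 and in 37.4% of all. The GATA factor motif searched was AGATAA, which 0 of the 7 windows and 11.2% of all promoters held. The TATA box, spelled TATAAA, was likewise in 0 of 7 and in 13.6% of all. A nuclear receptor half-site, spelled AGGTCA, was in 0 of 7 and in 16.3%. The SOX motif searched was ACAAT, in 0 of 7 and in 31.0%.

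The 10 genes were all transcribed in ES cells, at levels that differed widely. In ES wild type the order was Sparc, Nid2, Lamc1, Hspg2, Lamb1, Lama5, Nid1, Col4a1, Col4a2 and Lama1, from 158 down to 9.69 FPKM. Sparc was the member with the highest level in all 6 libraries. The lowest was Lama1 in the 4 E36 libraries and Col4a2 in the 2 E14 libraries. Summed, the 10 genes held 449 FPKM in ES wild type, 469 in ES Eed KO, 615 in EB wild type, 1112 in EB Eed KO, 423 in shCtrl and 330 in shSetd2. Without Sparc, the EB wild-type sum was the lowest of the 6 at 237 FPKM and the EB Eed KO sum the highest at 528. For 8 of the 10 genes the highest level of all was in EB Eed KO, the library that held the highest level of 23.6% of the 14973 genes with an FPKM of at least 1 in any library.

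**Figure D1:**
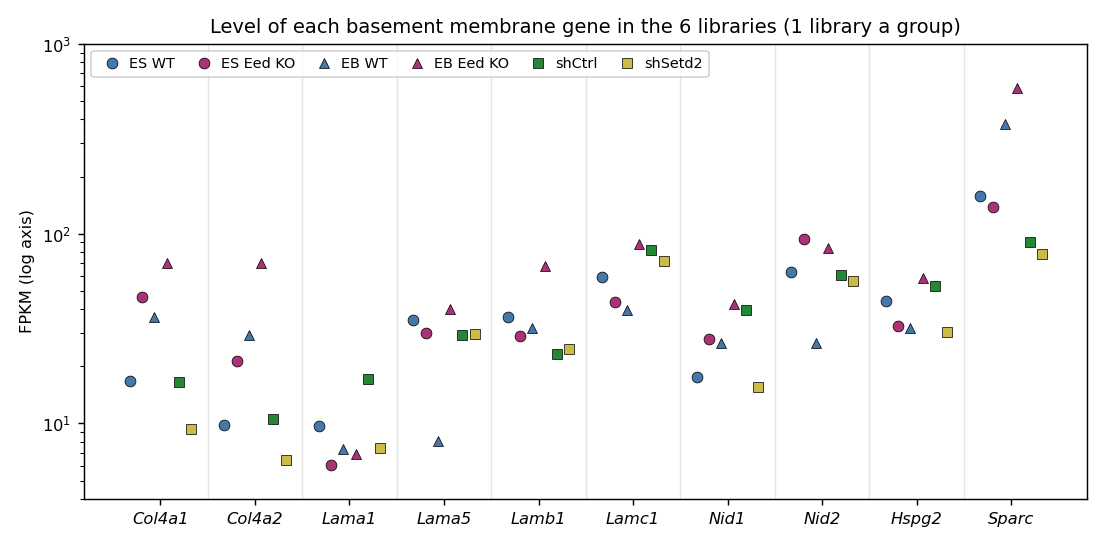
FPKM (log axis) of each basement membrane gene in the 6 libraries; each point is 1 library, with circles for E36 ES cells, triangles for EBs and squares for E14 cells, and there are no error bars because a group is 1 library. The EB Eed KO triangle is the top point for every gene except Lama1 and Nid2, and the shSetd2 square is the bottom point for Col4a1, Col4a2, Nid1, Hspg2 and Sparc.

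Comparing the EB library labelled Eed KO with the EB wild-type library, 5 of the 10 genes were higher by the size rule and 0 lower: Lama5, Nid2, Col4a2, Lamc1 and Lamb1. Of the 13919 genes tested, 8.15% were higher and 10.4% lower, a balance that turned under each of 3 rescalings, for example to 9.75% and 8.98% at equal totals. The median difference of the 10 was 0.99, beside -0.16 over all genes, and 9 of the 10 differences were above 0, against 39.7% of all genes. The exception in direction was Lama1, at -0.07, whose sign turned under rescaling of the libraries. Comparing the ES library labelled Eed KO with ES wild type, 2 of the 10 were higher, both of them collagen IV genes, and 0 lower, where 3.24% of 12862 genes were higher and 3.46% lower. There the median of the 10 was -0.21, beside -0.05 over all genes. Below 0 were 6 of 10 differences, near the 55.3% of all genes. These ES counts depended on the control: against shCtrl in place of ES wild type, Col4a1 alone was higher (1.44), Col4a2 stood at 0.95, Lama1 was lower (-1.37) and the median was 0.17, where 5.47% of 12805 genes were higher and 3.86% lower. Between shCtrl and ES wild type, chromosome 8, which holds both collagen IV genes, had a median of -0.44, against -0.10 over all genes.

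**Figure D2:**
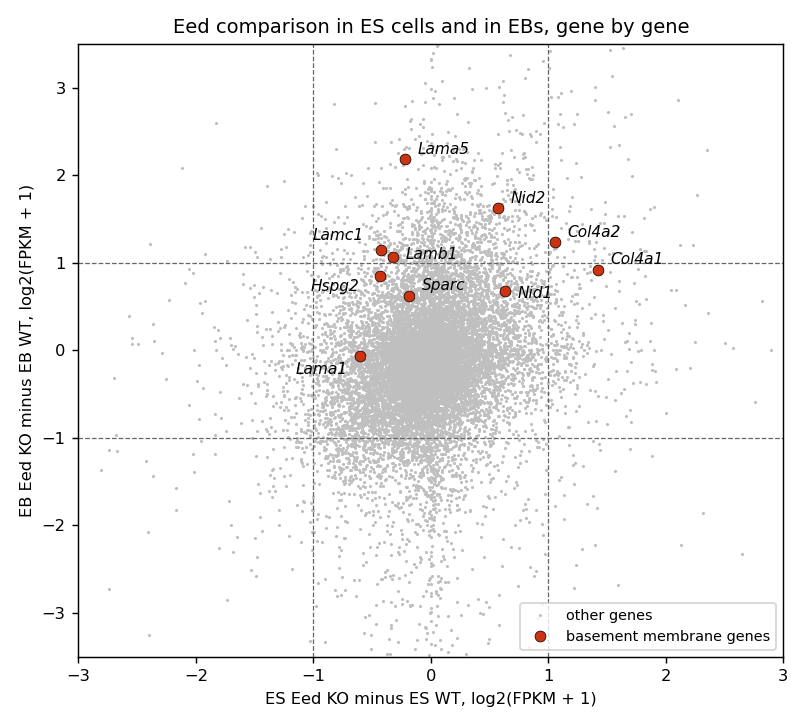
Each point is a gene, with the difference in log2(FPKM + 1) of ES Eed KO minus ES wild type on the horizontal axis and of EB Eed KO minus EB wild type on the vertical axis; dashed lines mark the size rule, and 266 of 14772 genes lie outside the axes. Lama5, Lamc1 and Lamb1 sit above the upper line left of 0, and the 2 collagen IV genes are the members right of the vertical line at 1.

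Unlike the laminin genes, both collagen IV genes had a level above wild type in the Eed KO library in both settings. The nidogen genes did so too, at 0.63 and 0.68 for Nid1 and 0.57 and 1.63 for Nid2 in ES cells and EBs. This depended on the ES control. Against shCtrl, ES Eed KO was lower for Nid1 (-0.50) and higher for Nid2 (0.63), Lama5 (0.03) and Lamb1 (0.31). Col4a1, the more abundant chain gene in ES cells, was 16.7 FPKM in ES wild type, 46.5 in ES Eed KO, 36.6 in EB wild type, 70.1 in EB Eed KO, 16.6 in shCtrl and 9.34 in shSetd2. Col4a2 was 9.78, 21.4, 29.1, 69.8, 10.6 and 6.44 FPKM in the same order. Both genes were highest in EB Eed KO and lowest in shSetd2, with ES wild type and shCtrl next to each other, while ES Eed KO lay above EB wild type for Col4a1 and below it for Col4a2. The Eed difference of Col4a1 was 1.42 in ES cells (2.78-fold) and 0.92 in EBs (1.92-fold), the second just under the size rule and past it under each of the 3 rescalings tried. That of Col4a2 was 1.06 in ES cells (2.19-fold), just over it, and 1.23 in EBs (2.40-fold).

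The ratio of Col4a1 to Col4a2 was not fixed. It was 1.71 in ES wild type, 2.17 in ES Eed KO, 1.26 in EB wild type, 1.01 in EB Eed KO, 1.56 in shCtrl and 1.45 in shSetd2. Every library held more Col4a1 than Col4a2, and the ratio was lowest in the EBs. The 10 genes flanking the pair included 0 higher and 3 lower in the ES Eed comparison, with a median of -0.20. In the EB comparison they included 0 higher and 3 lower, with a median of -0.47. Of all genes with an FPKM of at least 5, 2.99% were higher and 3.71% lower in the ES comparison. In the EB comparison these shares were 7.77% and 10.7%. With 10 genes, an effect of the region was not tested.

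Lama5, the laminin alpha chain most widespread in epithelia, had the greatest Eed difference of the 10 in EBs. The gene (NM_001081171) spans chr2:179911078-179960564 on mm9. It was 35.0 FPKM in ES wild type, 29.9 in ES Eed KO, 8.04 in EB wild type, 40.1 in EB Eed KO, 29.2 in shCtrl and 29.6 in shSetd2. The EB wild-type library was alone in being low, and the other 5 lay within a factor of 1.5 of each other. The difference between EB Eed KO and EB wild type was 2.19 (4.99-fold), at percentile 98.8 of all genes tested, and that between the ES libraries was -0.22. Of the 10 genes around Lama5, 0 were higher and 1 lower in the EB comparison, near the 7.77% and 10.7% of all genes with an FPKM of at least 5.

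Lama1, the laminin alpha chain of the earliest embryonic basement membranes, followed another course. The gene (NM_008480) spans chr17:68046605-68171985 on mm9. Its levels were 9.69, 6.06, 7.32, 6.93, 17.2 and 7.38 FPKM in ES wild type, ES Eed KO, EB wild type, EB Eed KO, shCtrl and shSetd2. Only shCtrl stood apart, on the high side. The Eed difference was -0.60 in ES cells and -0.07 in EBs.

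The relation of these alpha chain genes therefore changed between libraries. The ratio of Lama5 to Lama1 was 3.62 in ES wild type and 4.93 in ES Eed KO, 1.10 in EB wild type and 5.79 in EB Eed KO, and 1.70 in shCtrl and 4.02 in shSetd2. As a share of Lama1 plus Lama5, Lama1 was 47.7% in EB wild type and 14.7% in EB Eed KO, with 21.7% and 16.9% in the matching ES libraries. The sum of the pair was 15.4 FPKM in EB wild type and 35.9 to 47.0 in the other 5. Lama4, another alpha chain gene, was 7.45 FPKM in EB wild type and 2.19 in EB Eed KO. Over all 5 alpha chain genes of the table, the share of Lama1 was 31.2% in EB wild type and 13.7% in EB Eed KO.

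Lamb1 and Lamc1 encode the beta and gamma chains that pair with either alpha chain, and their levels ran alike across the E36 libraries. On mm9, Lamb1 (NM_008482) spans chr12:31950159-32014504 and Lamc1 (NM_010683) chr1:155066052-155179916. Lamb1 was 36.4 FPKM in ES wild type, 29.0 in ES Eed KO, 31.9 in EB wild type, 67.8 in EB Eed KO, 23.2 in shCtrl and 24.5 in shSetd2. Lamc1 was 59.0, 43.7, 39.6, 88.6, 82.5 and 71.9 FPKM. Both were highest in EB Eed KO, while the E14 libraries were the lowest for Lamb1 and came directly after EB Eed KO for Lamc1. The EB Eed difference was 1.06 for Lamb1 (2.13-fold) and 1.14 for Lamc1 (2.24-fold), and the ES difference -0.32 and -0.42. The ratio of Lamc1 to Lamb1 ran from 1.24 to 1.62 in the E36 libraries and was 3.56 in shCtrl and 2.93 in shSetd2. Lama1 plus Lama5 was 0.758 of Lamc1 in ES wild type and 0.822 in ES Eed KO, 0.387 in EB wild type and 0.531 in EB Eed KO. With all 5 alpha chain genes the EB ratios were level, at 0.592 and 0.569, so the EB gap held only for the pair.

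**Figure D3:**
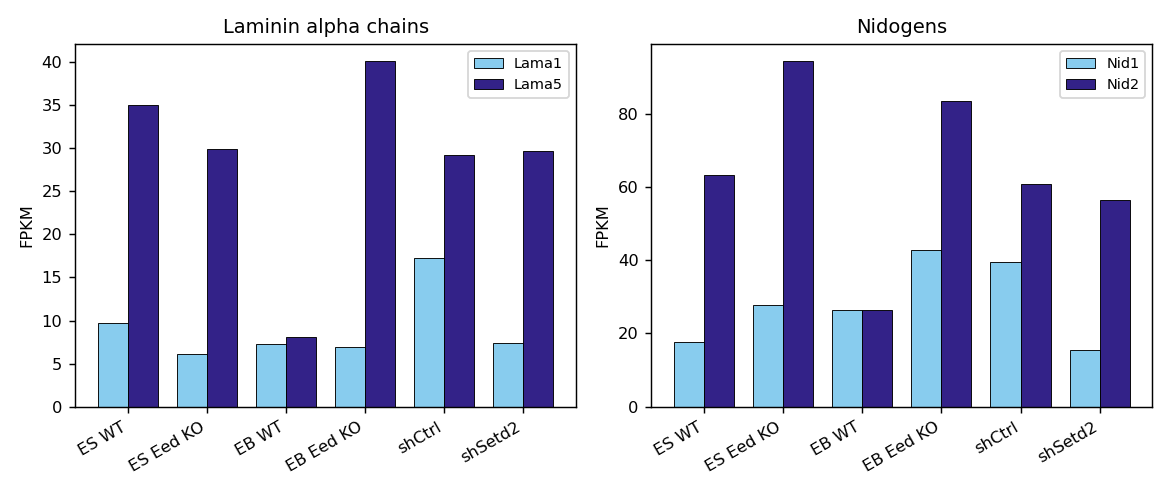
FPKM (bars, from 0) of the laminin alpha chain genes Lama1 and Lama5 and of the nidogen genes Nid1 and Nid2 in the 6 libraries, 1 library a bar and no error bars. In EB wild type the members of each pair are level, at 7.32 and 8.04 FPKM for the alpha chains and at 26.4 FPKM for both nidogens.

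The nidogens, which link laminin to collagen IV, were also unequal. On mm9, Nid1 (NM_010917) spans chr13:13529869-13604542 and Nid2 (NM_008695) chr14:20570479-20643045. Nid2 was 63.1 FPKM in ES wild type, 94.3 in ES Eed KO, 26.4 in EB wild type, 83.6 in EB Eed KO, 60.8 in shCtrl and 56.5 in shSetd2. As for Lama5, EB wild type was the low library, and the EB Eed difference was 1.63 (3.17-fold). Nid1 was 17.5, 27.7, 26.4, 42.8, 39.5 and 15.5 FPKM. Its Eed difference was 0.63 in ES cells and 0.68 in EBs, under the size rule in both. Against shCtrl in place of ES wild type, the ES value of Nid1 was -0.50. The ratio of Nid2 to Nid1 was 3.60, 3.40, 0.999, 1.95, 1.54 and 3.63 in the same order of libraries, so that the pair was level in EB wild type and Nid2 was the higher in the other 5.

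Hspg2 (NM_008305, mm9 chr4:137024718-137126545), which encodes perlecan, was 44.4 FPKM in ES wild type, 32.5 in ES Eed KO, 31.9 in EB wild type, 58.2 in EB Eed KO, 52.9 in shCtrl and 30.3 in shSetd2. It had the narrowest range of the 10, a factor of 1.92 from lowest to highest, while that of Col4a2 was 10.8. Its Eed difference was -0.44 in ES cells and 0.85 in EBs, neither past the size rule.

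Sparc (NM_009242, mm9 chr11:55208003-55233582) was 158 FPKM in ES wild type, 138 in ES Eed KO, 378 in EB wild type, 584 in EB Eed KO, 90.2 in shCtrl and 78.6 in shSetd2. Both EB libraries were above all ES libraries. The Eed difference was -0.19 in ES cells and 0.63 in EBs. Sparc lies on chromosome 11, where the median difference was -0.56 in the ES Eed comparison, -0.74 in the EB Eed comparison and -0.57 between shCtrl and ES wild type, against -0.07, -0.19 and -0.10 over all genes with an FPKM of at least 5. Relative to its chromosome, Sparc was 0.37 higher in ES Eed KO and 1.37 higher in EB Eed KO. The part of the chromosome's shift in Sparc's own value was not tested.

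Differentiation was read in each genotype. From ES wild type to EB wild type, 3 of the 10 genes were higher, namely Col4a2 (1.48), Sparc (1.26) and Col4a1 (1.08), and 2 were lower, Lama5 (-2.00) and Nid2 (-1.23, or -0.94 at equal totals). Over 14047 genes 20.3% were higher and 14.9% lower, so the members' counts of 3 and 2 lay near the background. From ES Eed KO to EB Eed KO, 4 were higher, namely Sparc (2.07), Col4a2 (1.66), Lamb1 (1.20) and Lamc1 (1.00, at the limit), and 0 lower. Of 13999 genes there, 20.8% were higher and 19.6% lower. The median of the 10 was -0.27 in wild type and 0.72 in Eed KO, beside 0.03 and -0.05 for all genes.

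For 5 of the 10 genes, namely Lama1, Lama5, Lamb1, Lamc1 and Hspg2, the EB level was below the ES level in wild type and above it in Eed KO. Of all genes tested, 48.9% were below 0 in wild-type differentiation and 48.3% above 0 in that of Eed KO. The share of all genes with both was not counted here. At equal totals, Lamb1 in wild type turned from -0.19 to 0.098 and left the 5 genes. Nid2 joined them there, at -0.94 in wild type and 0.10 in Eed KO (-0.17 as reported). The Lama5 values were -2.00 and 0.41. The gap between the genotypes' differentiation values is by construction the gap between the Eed differences of EBs and ES cells, and it was 2.41 for Lama5, 1.57 for Lamc1, 1.38 for Lamb1, 1.28 for Hspg2, 1.05 for Nid2, 0.81 for Sparc, 0.53 for Lama1, 0.18 for Col4a2, 0.05 for Nid1 and -0.50 for Col4a1. It was greatest for Lama5, Lamc1 and Lamb1 and smallest in size for Nid1 and Col4a2. It could not be tested without replicates, and a difference between lines labelled Eed KO cannot be told apart from differentiation in it.

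Markers of several cell types moved with the EB result, and their part in it was not tested. Over 10 epithelial markers, of which Cdh1 and Epcam encode adhesion molecules, the summed level was 147 FPKM in EB wild type and 410 in EB Eed KO, after 809 and 640 in the ES libraries. Over 10 mesenchyme markers it was 829 and 1872 in the EBs, with Col1a1 at 273 and 587, and over 10 neural markers 501 and 12.1, with Tubb3, a neuronal tubulin, at 290 and 1.23. Over 18 extraembryonic endoderm markers it was 104 and 198: Gata4 was 3.30 and 24.8 and Gata6 17.6 and 52.6 FPKM, whereas Sox17, Hnf4a, Afp, Ttr and Apoa1 were under 1 FPKM in both EB libraries. Over 10 endothelial markers the sums were 10.2 and 7.17. In the ES comparison the endoderm sum was 8.48 in wild type and 17.4 in Eed KO, with 15 and 12 of the 18 markers under 1 FPKM. Of the 6 endoderm markers tested there, 1 was higher, Gata4 (0.571 to 2.65 FPKM), and 0 were lower. Over all genes 3.24% were higher and 3.46% lower. Gata4 and Gata6, among others, passed the filter only through ES Eed KO. Such genes could only come out higher, so the count does not show a direction. In shCtrl, which is another cell line and carries a virus, the endoderm sum was 28.0 and Col4a1 was 16.6 FPKM. A link between endoderm markers and Col4a1 was not tested.

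Other components of the basement membrane were measured beside the 10. Of 26 such genes, 21 were tested in the EB Eed comparison, with 9 higher, 2 lower and a median of 0.88. Over all genes 8.15% were higher and 10.4% lower. Fras1 and Frem1, which encode matrix proteins of the embryonic epidermal junction, were 5.35 and 3.09 FPKM in EB wild type and 19.1 and 7.66 in EB Eed KO. Singled out after the values were seen, Npnt, which encodes a ligand of integrins, was 1.66 and 19.4, and Tinagl1 was 5.33 and 40.2. Those 2 were also the ones higher in the ES Eed comparison, where 11 were tested, 0 were lower and the median was -0.42. All genes gave 3.24% higher and 3.46% lower there. Also chosen after their values were seen, the 2 lower in EBs were Lama4, a chain gene of vascular laminins, at 7.45 and 2.19, and Smoc1 at 8.78 and 3.14.

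The other laminin and collagen IV chain genes were not a copy of the members. Col4a5 and Col4a6, which form another pair on the X chromosome, were at 0.305 FPKM or less in both E36 ES libraries and at 22.0 and 10.2 in EB wild type and 21.0 and 10.4 in EB Eed KO. Their Eed difference in EBs was -0.07 and 0.02, beside 0.92 and 1.23 for Col4a1 and Col4a2. Lamb2, a beta chain gene singled out after its values were seen, was 14.5 in EB wild type and 33.5 FPKM in EB Eed KO.

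Receptors carry the signal of these proteins into cells. Of 16 receptor genes, 14 were tested in the EB Eed comparison, with 5 higher, 0 lower and a median of 0.66. In the ES comparison 14 were tested, with 0 higher, 3 lower and a median of -0.31. The shares of all genes higher and lower were 8.15% and 10.4% in EBs and 3.24% and 3.46% in ES cells. Bcam, which encodes a receptor for laminins with the alpha chain of Lama5, was 84.3 FPKM in ES wild type, 34.9 in ES Eed KO, 8.15 in EB wild type and 34.1 in EB Eed KO. Itga3, an integrin chain gene, was 56.9, 27.5, 7.66 and 21.2 in the same order. Both were lower in Eed KO among ES cells and higher among EBs, and for both, as for Lama5, EB wild type was the lowest of the 4. Itga3 lies on chromosome 11, whose median was -0.56 in the ES Eed comparison and -0.74 in the EB one. Its own ES difference was -1.02, and the part of the chromosome's shift in it was not tested. In the other ES control, shCtrl, Itga3 was 10.9 FPKM and Bcam 55.7. Sdc2, which encodes a syndecan, was 12.4 in EB wild type and 24.6 in EB Eed KO, and the collagen receptor gene Ddr2 12.3 and 12.8.

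Genes for collagen folding and cross-linking were measured for 19 of 20 listed genes in the EB Eed comparison, with 3 higher, 1 lower and a median of 0.62. Among all genes there, 8.15% were higher and 10.4% lower. Serpinh1, the collagen chaperone, was 34.7, 35.6, 220 and 354 FPKM in ES wild type, ES Eed KO, EB wild type and EB Eed KO. The cross-linking enzyme gene Lox was 0.717, 0.352, 8.89 and 34.7. P4ha2 and P4ha3, prolyl hydroxylase subunit genes, were 29.3 and 5.63 in EB wild type and 45.5 and 15.4 in EB Eed KO. In ES cells 14 were tested and 0 were higher or lower, including Serpinh1, where 3.24% of all genes were higher and 3.46% lower.

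Of 21 genes for matrix proteases and their inhibitors, all were tested in EBs, with 6 higher, 1 lower and a median of 0.66. Again 8.15% of all genes were higher and 10.4% lower. Mmp2, a protease that cleaves collagen IV, was 12.6, 6.34, 84.2 and 199 FPKM in ES wild type, ES Eed KO, EB wild type and EB Eed KO. Adamts1 was 24.8 in EB wild type and 24.9 in EB Eed KO, Plat 41.0 and 36.3, and Timp2, an inhibitor of such proteases, 50.2 and 41.2. In ES cells 3 of 18 were higher and 0 lower, with a median of 0.11, beside 3.24% and 3.46% of all genes.

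**Figure D4:**
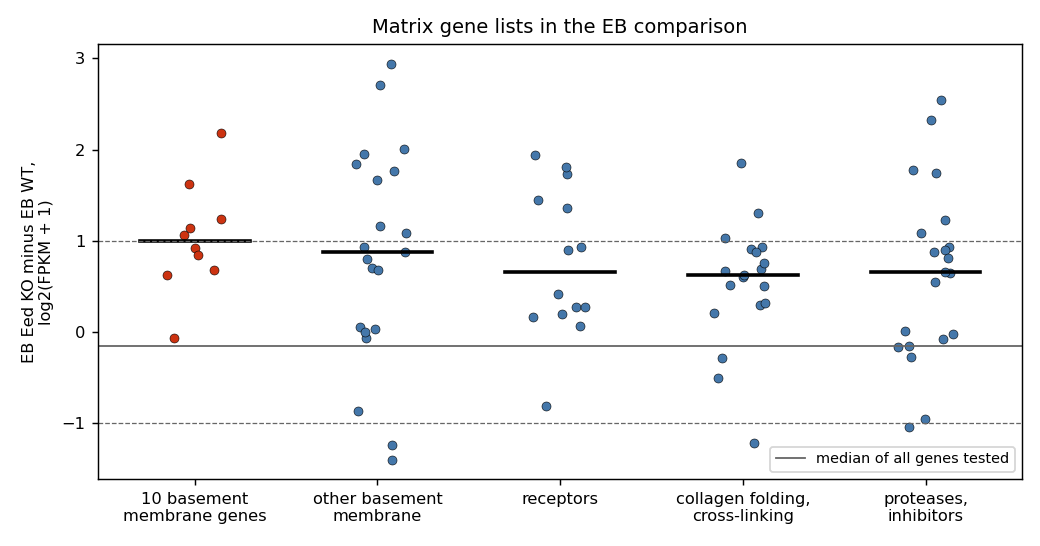
Difference in log2(FPKM + 1) of EB Eed KO minus EB wild type for each tested gene of the 5 lists; points are genes (spread sideways to be seen), thick lines the list medians, the grey line the median of all genes and dashed lines the size rule. All 5 list medians, from 0.62 to 0.99, lie above the all-gene median of -0.16.

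Setd2 knockdown in E14 cells was compared with its hairpin control, and there 0 of the 10 genes were higher and 2 lower, Nid1 and Lama1. Of 12317 genes, 0.706% were higher and 1.7% lower. The difference was -1.29 for Nid1 (39.5 to 15.5 FPKM) and -1.12 for Lama1 (17.2 to 7.38 FPKM). Hspg2 (-0.78), Col4a1 (-0.77) and Col4a2 (-0.64) followed under the size rule, and Lama5 (0.02), Lamb1 (0.08), Nid2 (-0.10), Lamc1 (-0.20) and Sparc (-0.20) lay closer to 0. The median was -0.42, beside -0.13 over all genes. Lama1 was no longer past the size rule with a pseudocount of 5, with the chromosome median taken off, or when the libraries were scaled to equal totals or upper quartiles, whereas Nid1 was.

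The levels of the other ES control bear on that reading. Between shCtrl and ES wild type, which differ in cell line and in virus treatment, 1 of the 10 was higher, Nid1 (1.13), and 0 lower, where 3.14% of 12747 genes were higher and 5.65% lower. Lama1 was next at 0.77. Both genes were thus higher in shCtrl than in either ES wild type or shSetd2. The summed extraembryonic endoderm markers were 8.48 in ES wild type, 28.0 in shCtrl and 12.2 FPKM in shSetd2. In the Setd2 comparison 4 of the 9 tested were lower and 0 higher. Several of the 9, Gata6 and Pdgfra among them, passed the filter only through shCtrl, where they were high. Those could only come out lower, so the count does not show a direction. Gata6 was 3.22 in shCtrl and 0.821 in shSetd2, and Pdgfra 2.00 and 0.0656. The part of these markers in the Nid1 and Lama1 values was not tested. The other lists gave 0 calls in the Setd2 comparison among 9 basement membrane, 14 receptor, 14 folding and 15 protease genes tested. With 0.706% of all genes higher and 1.7% lower there, 0 calls among so few genes lay near the background.

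The profiles were compared over the 6 libraries as log2(FPKM + 1) with each gene's mean taken off, by the root mean square difference. The closest member pairs were Lamc1 with Hspg2 (0.302), Lama5 with Nid2 (0.320) and Col4a1 with Col4a2 (0.334), and the farthest Lama5 with Sparc (1.42). Among 10371 genes, those nearest to Col4a1 were Gstk1 (0.230), Igsf3 (0.238), Tns1 (0.280), Naaa (0.295) and Emp1 (0.296), and 8 genes lay nearer than Col4a2. Gstk1 and Emp1 lie on chromosome 6 and Igsf3 on chromosome 3, whose medians in the ES Eed comparison were 0.50 and 0.34. Nearest to the mean of the 10 were Tpra1 (0.098), Nfkb1 (0.108), Tor1aip2 (0.120), Pacsin3 (0.132) and Copg1 (0.141). Tpra1 and Copg1 also lie on chromosome 6 and Nfkb1 on chromosome 3, whose medians in the EB Eed comparison were 0.38 and 0.44. With 6 libraries, many genes can lie near any profile, and the measure is a description.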

How the data were processed

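Of 18 samples, the 6 RNA-seq libraries were analysed and the 12 ChIP-seq samples were not analysed here. The libraries were made with the TruSeq RNA version 2 kit, per the labels' protocols, which does not mark strand, so antisense reads count with their gene. FPKM of 29851 RefSeq transcripts were deposited, made by the authors with TopHat and Cuffdiff on mm9, per the submitters' processing notes. Versions, options and scaling: not given in the sources used here. Symbols came from a RefSeq table (GRCm38.p6, used for names only) for 29300 transcripts, and 551 kept their accession. For 3939 genes with several transcripts, the one with the highest mean was used. Starts of loci were counted from 0 in the table and are printed from 1.

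Each comparison is a difference of log2(FPKM + 1) between 2 libraries (pseudocount 1, FPKM of at least 1 in either). There were 6 comparisons, and comparisons that share a library are set side by side only. Absolute depth is unknown, and relative depth was estimated from ratios of low values. Named genes are all members, the targeted genes, and from each other list up to 4 with the largest Eed or differentiation difference among those with FPKM of at least 5, plus set markers. The members and lists were chosen with earlier results of these data known. Alternatives were pseudocounts of 0.1 and 5, an FPKM minimum of 5, no minimum, a size rule of a factor of 1.5, summed transcripts of a gene, rescaling to equal totals, upper quartiles or a median of ratios, and shCtrl as the ES control. Taking off the chromosome median was chosen after seeing the data. The functions were tested on simulated data. Python 3.11.15, pandas 2.3.3, numpy 2.4.6 and matplotlib 3.10.9 were used. A result on 1 item is not reported here.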

Additional observations from a re-analysis of the deposited data

Results flagged for a closer look

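For 6 genes an effect went one way in one setting and the other way in the other, with ES wild type as the ES control. The share of all genes that did so was not counted here. None of these differences was tested, because each setting has 1 library a genotype. For Lama5, the Eed difference was -0.22 in ES cells and 2.19 in EBs, a gap of 2.41, and the same gap separates differentiation in wild type (-2.00) from that in Eed KO (0.41). The gap was 1.57 for Lamc1 (Eed -0.42 and 1.14; differentiation -0.56 and 1.00). It was 1.38 for Lamb1 (Eed -0.32 and 1.06; differentiation -0.19 and 1.20), and its wild-type differentiation turned to 0.098 at equal totals, so that both were then above 0. For Hspg2 it was 1.28 (Eed -0.44 and 0.85; differentiation -0.46 and 0.82). For Sparc the Eed difference was -0.19 in ES cells and 0.63 in EBs, a gap of 0.81; with the chromosome median taken off, both were above 0, at 0.37 and 1.37. For Lama1, differentiation was -0.36 in wild type and 0.17 in Eed KO, a gap of 0.53. Part of the Eed reversals rested on the ES control. Against shCtrl, the ES Eed difference was 0.03 for Lama5, 0.31 for Lamb1 and 0.61 for Sparc, above 0 as in EBs. For Lamc1 (-0.90) and Hspg2 (-0.68) it stayed below 0.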

How the results depend on the processing

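Without replicates, no difference here has an error, and no paired analysis was possible because each group is 1 library. Summing transcripts and changing the FPKM minimum, 3 of the alternatives, could not change a member. Of the 86 other counts of members, 33 were 0 in both settings, and of the remaining 53, 38 stayed within a factor of 1.5 of the reported count and 15 did not. Of 37 medians, 20 moved by over 0.1. In the EB Eed comparison, 9 members were higher with a size rule of a factor of 1.5, as were 16.2% of all genes, and 8 with the chromosome median taken off, as were 10.2%. In the ES Eed comparison, 1 was higher with a pseudocount of 5 and 1 against shCtrl, and 1 was lower with a factor of 1.5 (11.5% of all genes) and 1 against shCtrl; the median of the 10 turned to 0.17 against shCtrl and 0.10 with the chromosome median taken off. From ES wild type to EB wild type, 1 was lower at equal totals. Between shCtrl and ES wild type, 0 were higher with a pseudocount of 5, and 2 were higher and 2 lower with a factor of 1.5 (8.56% and 16.7% of all genes). In the Setd2 comparison, 1 was lower with a pseudocount of 5, at equal totals, at upper quartiles and with the chromosome median taken off, and 5 with a factor of 1.5 (6.60% of all genes). The EB Eed median of the 10, 0.99, was 1.01 with a pseudocount of 0.1, 1.11 at equal totals, 1.13 at upper quartiles and at a median of ratios, and 1.27 with the chromosome median taken off.

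Rescaling turned the sign of a member in 5 comparisons: Lama1 in EBs by Eed, Lamb1 in wild-type differentiation, Nid2 in Eed KO differentiation and by Setd2, and Col4a1 and Nid2 between shCtrl and ES wild type, and in 0 members in the ES Eed comparison. Taking shCtrl as the ES control did turn signs in the ES Eed comparison, those of Lama5, Lamb1, Sparc and Nid1. The cause of these moves was not tested. Rescaling to equal totals shifted the median of all genes by over 0.1, to 0.07 in the ES Eed comparison, -0.05 in the EB Eed comparison, 0.29 and 0.21 in wild-type and Eed KO differentiation and 0.00 by Setd2. Relative to all genes, the members' EB Eed median was 1.15 as reported and 1.16 under each rescaling. Among all genes called, the share higher went from 48.4% to 60.9% at equal totals in ES by Eed, from 43.9% to between 52.1% and 53.3% under the rescalings in EBs by Eed, from 57.6% to 71.5% and from 51.5% to 63.9% in the differentiation comparisons, and from 29.3% to between 41.8% and 46.9% by Setd2 under the rescalings. With the chromosome median taken off it was 59.1% against 43.9% in EBs by Eed, 47.8% by Setd2 and 50.7% against 35.7% between shCtrl and ES wild type.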
